A study of Mus musculus with 52 samples.

Results

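The unfolded protein response genes examined here were 10 protein-coding mouse genes: Hspa5, Xbp1, Atf4, Ddit3, Herpud1, Sdf2l1, Creld2, Manf, Pdia4 and Dnajb9. They were taken from the deposited count table by matching the Ensembl identifier of each gene to its symbol, which gave 10 of the 46071 genes in the table, and all 10 were expressed highly enough to be tested in every comparison. The 52 RNA libraries came from nucleus accumbens, hypothalamus and hippocampus of male C57BL/6J mice aged 3 months. Conscious mice with a jugular catheter received saline (labelled basal), insulin at 4 mU/kg/min (low) or insulin at 12 mU/kg/min (high), with blood glucose held by a glucose infusion, and tissue was taken after 3 h of the clamp. Nucleus accumbens and hippocampus had 6 libraries for each infusion, and hypothalamus had 5 saline, 6 low and 5 high libraries. No allele or transgene is named for any group. The labels tie no library to a particular animal, so the p-values below measure the spread between libraries, and whether the regions of an animal were kept together is not known.

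The unfolded protein response adjusts the folding capacity of the endoplasmic reticulum (ER) to the load of secreted and membrane proteins. The kinase PERK slows translation and favours synthesis of ATF4, which can raise Ddit3 (CHOP). IRE1 splices Xbp1 mRNA into the form that encodes an active factor, and ATF6 is cut in the Golgi to release its own active part. These factors raise ER chaperones such as Hspa5 (BiP, the main Hsp70 of the ER), and neurons that make much secreted peptide carry a high ER load. The counts sum all transcripts of a gene, so spliced and unspliced Xbp1 mRNA were not told apart, and translation of Atf4 mRNA was not measured.

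The genes lie on the GRCm38 assembly as follows, with positions from GENCODE M21. The chaperone Hspa5 (ENSMUSG00000026864) spans chr2:34771970-34777547 on the plus strand. The transcription factor genes Xbp1 (ENSMUSG00000020484, chr11:5520659-5525893), Atf4 (ENSMUSG00000042406, chr15:80255184-80257541) and Ddit3 (ENSMUSG00000025408, chr10:127290774-127296288) are also on the plus strand. Herpud1 (ENSMUSG00000031770, chr8:94386438-94395377) and Creld2 (ENSMUSG00000023272, chr15:88819646-88826683) are on the plus strand too. Sdf2l1 (ENSMUSG00000022769, chr16:17130138-17132383), Manf (ENSMUSG00000032575, chr9:106838312-106891979), Pdia4 (ENSMUSG00000025823, chr6:47796141-47813430) and Dnajb9 (ENSMUSG00000014905, chr12:44205559-44210326) are on the minus strand.

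Among the genes that differed between regions, Hspa5, Herpud1 and Creld2 carry sequence elements of the response just upstream of their RefSeq start, and these are shown for that reason. RefSeq held the promoter of 9 of the 10 genes (assembly GRCm38.p6), all but Manf. The 250 bases upstream of the start were, for Hspa5 chr2:34771840-34772089, for Herpud1 chr8:94386179-94386428 and for Creld2 chr15:88819396-88819645, all on the plus strand. RefSeq's start differs from the GENCODE start of the gene given above for Hspa5, where it lies inside the GENCODE span, and for Herpud1, where it lies a few bases upstream. The windows and all positions below follow RefSeq's start. The stretches are printed 5′ to 3′ with capitals for matches to the motifs named below.
Hspa5: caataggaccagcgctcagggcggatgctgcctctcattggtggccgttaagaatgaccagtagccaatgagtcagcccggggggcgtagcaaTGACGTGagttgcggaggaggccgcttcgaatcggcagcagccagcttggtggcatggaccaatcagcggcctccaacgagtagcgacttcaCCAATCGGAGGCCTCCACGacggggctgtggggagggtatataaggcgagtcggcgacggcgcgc
Herpud1: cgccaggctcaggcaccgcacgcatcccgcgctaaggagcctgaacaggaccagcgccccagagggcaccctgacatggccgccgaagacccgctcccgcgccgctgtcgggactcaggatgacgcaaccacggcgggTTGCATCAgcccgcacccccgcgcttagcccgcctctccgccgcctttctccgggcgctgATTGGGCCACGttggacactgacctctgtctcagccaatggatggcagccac
Creld2: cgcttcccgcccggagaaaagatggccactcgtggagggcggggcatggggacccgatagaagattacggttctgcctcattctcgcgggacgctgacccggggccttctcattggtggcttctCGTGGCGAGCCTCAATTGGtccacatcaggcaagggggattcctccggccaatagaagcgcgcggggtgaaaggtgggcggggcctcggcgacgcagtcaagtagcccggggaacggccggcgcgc

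Searched on both strands, the ER stress response element ERSE (CCAAT, then any 9 bases, then CCACG), bound by NF-Y with ATF6 or XBP1, matched from -65 to -47 in Hspa5 and, on the other strand, from -126 to -108 in Creld2. The related ERSE-II (ATTGG, any 1 base, then CCACG) matched from -52 to -42 in Herpud1. Hspa5 also held the core of the unfolded protein response element (TGACGTG) from -157 to -151, and Herpud1 an ATF4 element (TGATGNAA) on the other strand from -112 to -105. Positions count back from the base before the RefSeq start, so the Hspa5 ERSE lies within the GENCODE span of the gene, and no 2 of these matches overlapped. Among 32851 mouse promoter windows from 250 bases before the start to 50 after it, 0.119% held ERSE, 0.0365% ERSE-II, 2.01% the core element and 3.97% the ATF4 element. No match was found in the windows of the other 6 genes with a promoter. A match describes letters in a window, and binding was not measured.

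Library totals ranged from 2453412 to 8279612 counts with a median of 4654641.5. Levels are given as CPM, counts scaled to a common library size with the TMM method. Region markers followed the labels in saline libraries. The peptide precursors Hcrt and Pmch had medians of 176 and 589 CPM in hypothalamus and at most 0.63 CPM elsewhere. Other hypothalamic peptide markers were less confined. In saline nucleus accumbens Oxt had a median of 20.5 CPM, against 147 CPM in hypothalamus. Avp reached 14.1 CPM there, against a hypothalamic median of 148 CPM. The dopamine receptor gene Drd1 had a median of 206 CPM in nucleus accumbens, and Slc17a7 of pyramidal neurons 926 CPM in hippocampus. Markers of neighbouring tissue varied between libraries. Choroid plexus markers (7 genes) summed to between 67.1 and 1465 CPM in saline hippocampus. Of these Ttr ranged between 17.2 and 1244 CPM, and Kl between 41.4 and 113 CPM. Slc17a7 ranged between 1.60 and 717 CPM in saline nucleus accumbens. Whether neighbouring tissue was carried over was not tested. Libraries also differed in how far they leaned to GC-rich transcripts, measured as the Spearman correlation across genes between transcript GC content and the deviation of the library from its region mean. A lean above 0.4, here called GC-leaning, was found in 3 of 5 saline hypothalamic libraries (replicates 1, 2 and 5, with 0.64, 0.72 and 0.44), and in 0 of 6 low and 0 of 5 high ones. In nucleus accumbens 1 saline, 1 low and 2 high libraries leaned, and in hippocampus 1 saline, 2 low and 1 high did. Since this lean moved with the saline hypothalamic group, comparisons with that group were also run without the leaning libraries, which leaves 2 saline hypothalamic libraries.

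The chaperone Hspa5 was the gene of the response most clearly marked by region: its level in saline hypothalamus was above every saline library of the other regions. Under saline it had 182, 252 and 288 CPM (lowest, median and highest) in nucleus accumbens. The 5 saline hypothalamic libraries had 435, 490, 423, 359 and 416 CPM. Saline hippocampus had 174, 201 and 256 CPM. The lowest hypothalamic library thus lay above the highest of either other region, with no overlap. The share of all genes that separate in this way was not computed. Between hypothalamus and hippocampus the log2 fold change was 1.07 (SE 0.15, adjusted p = 2.65e-08). Between nucleus accumbens and hypothalamus it was -0.78 (SE 0.15, adjusted p = 5.46e-05). Here and below, the test is edgeR's 2-sided quasi-likelihood test with Benjamini-Hochberg adjustment over all genes tested, and a gene is called at an adjusted p under 0.05. Both comparisons use the same saline hypothalamic libraries. In these bulk samples fewer cells of a type and less RNA per cell cannot be told apart. Without the GC-leaning libraries the values were 1.03 (adjusted p = 1.64e-06) and -0.70 (adjusted p = 0.00231).

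**Figure D1:**
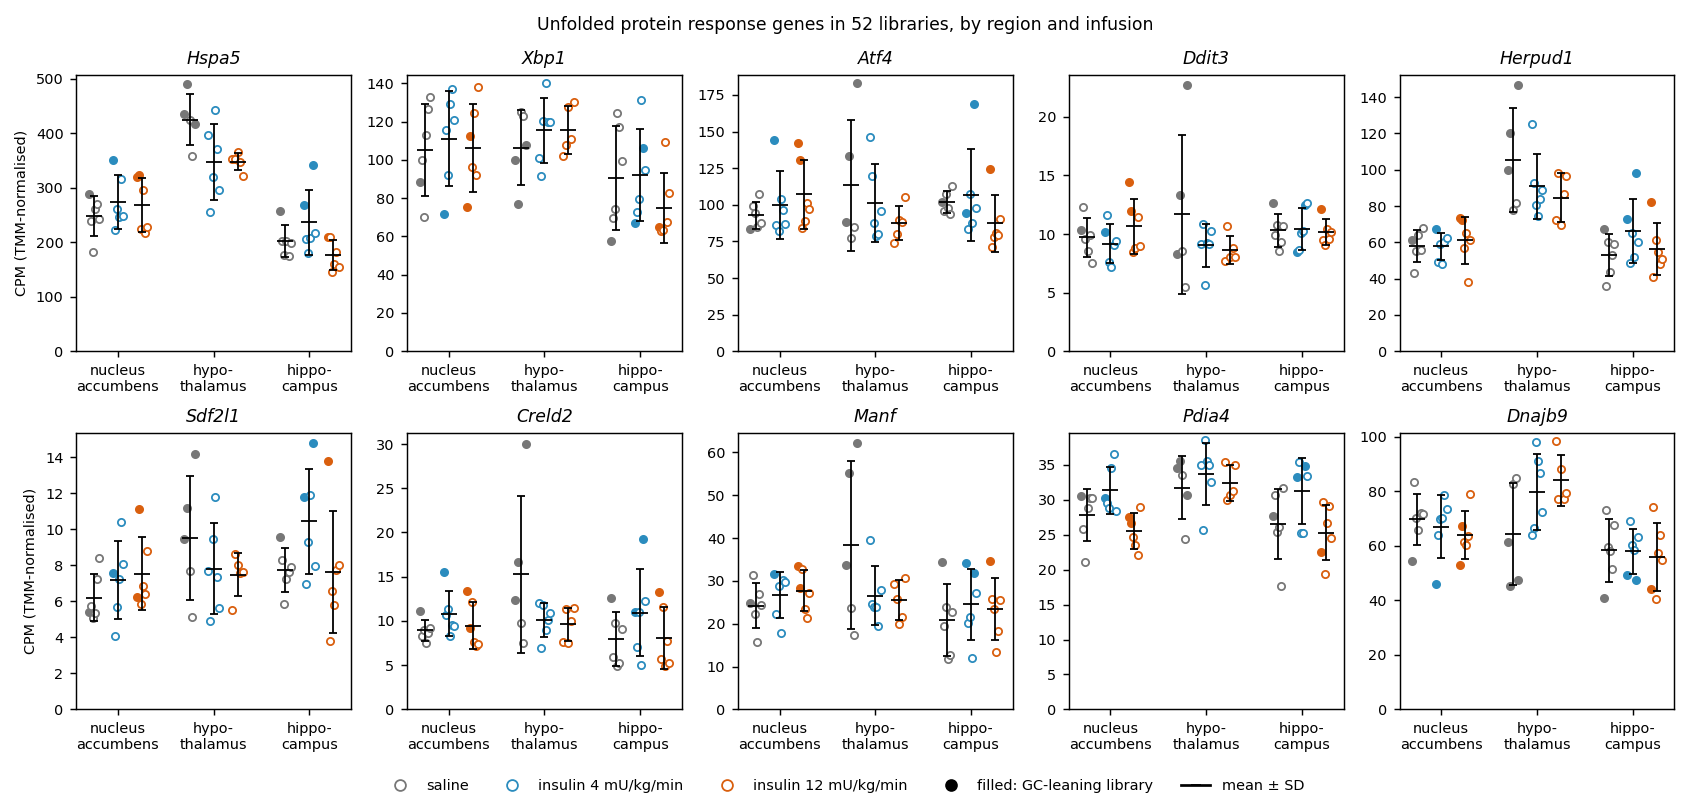
CPM (TMM-normalised, linear axes from 0) of the 10 genes in each of the 52 libraries, by region and, within a region, saline, low and high insulin from left to right. Filled points are GC-leaning libraries and bars give mean ± SD; Hspa5 and Herpud1 stand higher in saline hypothalamus than in either other region, and the 3 infusions overlap within each region.

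Over all 9 groups the order of mean Hspa5 levels began with the hypothalamus. Hypothalamic means were 425 ± 47.0 CPM under saline (SD, n = 5), 347 ± 69.4 CPM at the low rate (SD, n = 6) and 348 ± 16.1 CPM at the high rate (SD, n = 5). In nucleus accumbens they were 247 ± 36.7 CPM under saline, 274 ± 49.2 CPM at the low rate and 268 ± 49.9 CPM at the high rate (SD, n = 6 each). In hippocampus they were 202 ± 29.8 CPM under saline, 236 ± 59.1 CPM at the low rate and 177 ± 27.8 CPM at the high rate (SD, n = 6 each). Within nucleus accumbens the 3 groups overlapped, as did the low hippocampal group with them. Compared over the mean of the 3 infusions, Hspa5 also differed between nucleus accumbens and hippocampus (0.37, adjusted p = 0.000137), a difference that did not pass under saline alone (0.29, SE 0.14, adjusted p = 0.115). Comparisons over that mean draw on all libraries of both regions. The share of all genes called in them is not given, here or below.

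Herpud1, an ER membrane protein that helps send misfolded proteins for degradation, had the next clearest regional difference. Nucleus accumbens under saline had 43.1, 58.5 and 67.9 CPM (lowest, median and highest). The 5 saline hypothalamic libraries had 99.8, 120, 78.0, 81.7 and 147 CPM, against 36.2, 56.1 and 67.5 CPM in saline hippocampus. Every saline hypothalamic library lay above every saline library of the other regions, and the GC-leaning replicates 1, 2 and 5 were the 3 highest. For this separation, too, the share of all genes was not computed. Hypothalamus minus hippocampus was 0.99 (SE 0.18, adjusted p = 9.55e-06) and 0.65 without the GC-leaning libraries (adjusted p = 0.00903). Nucleus accumbens minus hypothalamus was -0.87 (SE 0.18, adjusted p = 0.000215). That call was lost without the GC-leaning libraries (-0.47, adjusted p = 0.124), and also with only the 3 libraries per group of the highest tag range in the titles (-0.71, adjusted p = 0.0755), a restriction chosen after seeing the data.

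Creld2 and Manf, soluble ER proteins that are secreted during stress, were also higher in saline hypothalamus, with wide scatter. Creld2 had 12.4, 16.6, 9.79, 7.46 and 30.0 CPM in the 5 hypothalamic libraries, against 4.95, 7.49 and 12.6 CPM (lowest, median and highest) in hippocampus. Manf had 33.7, 55.2, 23.7, 17.3 and 62.1 CPM in hypothalamus, against 11.9, 21.1 and 34.5 CPM in hippocampus. For both genes replicates 1, 2 and 5, the GC-leaning ones, were the 3 highest, while replicates 1, 3 and 4 lay inside the hippocampal range. Hypothalamus minus hippocampus was 0.97 for Creld2 (SE 0.28, adjusted p = 0.00434) and 0.90 for Manf (SE 0.26, adjusted p = 0.00364). Neither passed without the GC-leaning libraries (0.32, adjusted p = 0.447 for Creld2 and 0.19, adjusted p = 0.677 for Manf). Creld2 also lost its call without hypothalamic replicate 5 (0.58, adjusted p = 0.0909), and over the mean of the 3 infusions (0.36, adjusted p = 0.0524). Over that mean Manf was still called, at 0.37 (adjusted p = 0.0276), with the share of all genes called not given.

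In all, 4 of 10 genes were higher in hypothalamus than in hippocampus and 0 were lower, while 46.0% of the 14985 genes tested were called in either direction, 24.4% as higher and 21.6% as lower. The share of the 10 that was called was therefore not above that of all genes. All 10 log2 fold changes were above 0 with a median of 0.29, where 53.1% of all genes were above 0 with a median of 0.06. Without the GC-leaning libraries 3 genes were called higher, Hspa5, Herpud1 and Dnajb9. In that fit 16.3% of the 15465 genes tested were called higher and 15.7% lower. The 6 not called with all libraries ran from 0.13 for Dnajb9, an ER co-chaperone of Hspa5, to 0.32 for Sdf2l1, a subunit of ER chaperone complexes (SE 0.25, adjusted p = 0.299).

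Nucleus accumbens compared with hypothalamus under saline gave 5 of 10 genes lower and 0 higher, where 32.1% of all genes were called in either direction, 14.7% as higher and 17.3% as lower. Beside Hspa5 and Herpud1 these were Sdf2l1 (-0.63, SE 0.25, adjusted p = 0.0441), Creld2 (-0.78, SE 0.28, adjusted p = 0.0261) and Manf (-0.68, SE 0.25, adjusted p = 0.0365). Creld2 had 7.49, 8.81 and 11.1 CPM in nucleus accumbens and Manf 15.7, 24.6 and 31.4 CPM (lowest, median and highest). Sdf2l1 had 5.06, 5.59 and 8.41 CPM there, against 9.48, 11.2, 7.68, 5.10 and 14.2 CPM in hypothalamus. These 3 genes overlapped between the regions. None of the 3 passed without the GC-leaning libraries, at -0.05 for Sdf2l1 (adjusted p = 0.959) and -0.04 for Creld2 (adjusted p = 0.959), and Manf turned to 0.22 (adjusted p = 0.713). Leaving out hypothalamic replicate 5 alone ended all 3 calls (adjusted p = 0.202 for Sdf2l1, 0.297 for Creld2 and 0.220 for Manf). Over the mean of the 3 infusions none of the 3 passed either, at -0.24 for Sdf2l1 (adjusted p = 0.169), -0.23 for Creld2 (adjusted p = 0.250) and -0.17 for Manf (adjusted p = 0.360). The median over the 10 genes was -0.46, against -0.05 over all genes.

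Between nucleus accumbens and hippocampus 0 of 10 genes were called under saline by edgeR's quasi-likelihood test, where 29.2% of all genes were (14.7% as higher and 14.5% as lower). One gene, Hspa5, had an unadjusted p under 0.05, where 37.5% of all genes did, and DESeq2 called 0. The median of the 10 was 0.15, against 0.00 over all genes, with values between -0.31 for Sdf2l1 and 0.29 for Hspa5.

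**Figure D2:**
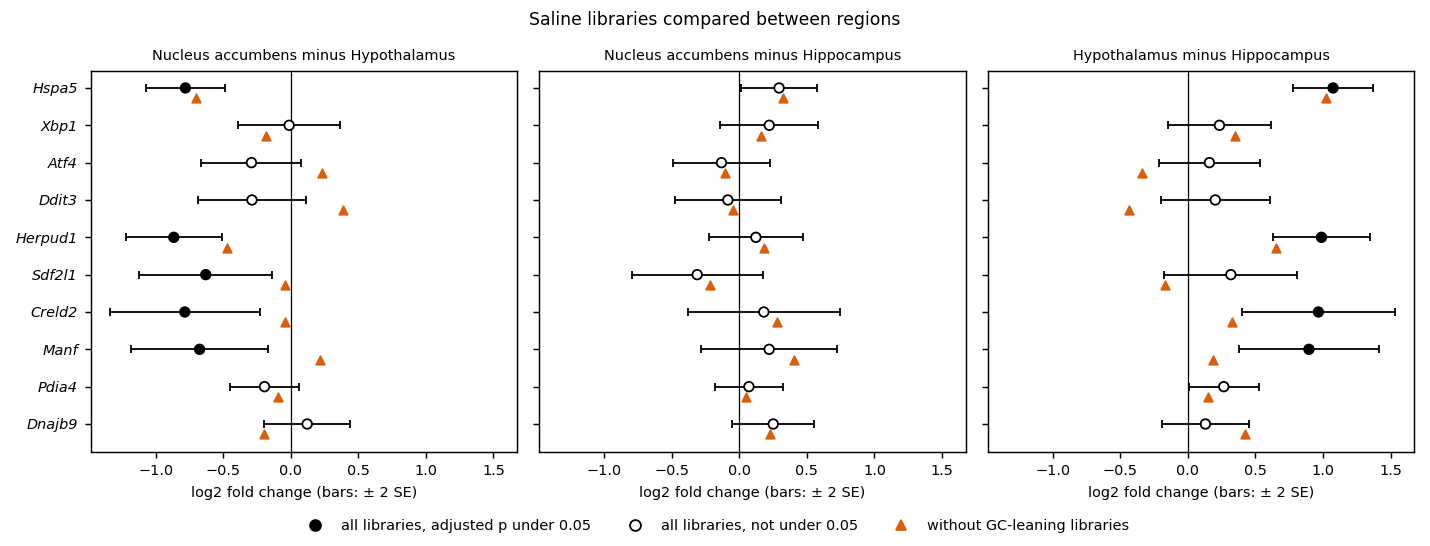
Log2 fold changes between regions in saline libraries for the 10 genes (circles with bars of ± 2 SE; filled where the adjusted p was under 0.05) and the same values without GC-leaning libraries (triangles). Hspa5 kept its place in both comparisons with the hypothalamus. In those comparisons the triangles of Herpud1, Creld2, Manf, Sdf2l1, Atf4 and Ddit3 moved toward 0 or across it. Pdia4 also moved toward 0 between hypothalamus and hippocampus.

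The transcription factors of the response did not pass the test between regions under saline. Xbp1 had 70.0, 107 and 133 CPM (lowest, median and highest) in nucleus accumbens. In hypothalamus its 5 libraries had 100, 76.7, 125, 123 and 108 CPM, inside the range of nucleus accumbens, and in hippocampus it had 57.6, 87.0 and 124 CPM. Atf4 had 83.4, 90.8 and 107 CPM in nucleus accumbens, 88.2, 133, 77.3, 84.8 and 183 CPM in the hypothalamic libraries, and 93.8, 99.998 and 113 CPM in hippocampus. Ddit3, the proapoptotic factor downstream of ATF4, had 7.57, 9.71 and 12.3 CPM in nucleus accumbens, 8.32, 13.3, 8.59, 5.50 and 22.7 CPM in the hypothalamic libraries, and 8.58, 10.3 and 12.6 CPM in hippocampus. For Atf4 and Ddit3 the GC-leaning hypothalamic replicates 2 and 5 lay above all saline libraries of the other regions, and the other 3 did not. Hypothalamus minus hippocampus was 0.23 for Xbp1 (SE 0.19, adjusted p = 0.322), 0.16 for Atf4 (SE 0.19, adjusted p = 0.504) and 0.20 for Ddit3 (SE 0.20, adjusted p = 0.427). Without the GC-leaning libraries Xbp1 was at 0.35 (adjusted p = 0.271), Atf4 at -0.34 (adjusted p = 0.122) and Ddit3 at -0.44 (adjusted p = 0.141), so the sign of Atf4 and Ddit3 turned. Over the mean of the 3 infusions Xbp1 did pass, at 0.40 between hypothalamus and hippocampus (adjusted p = 0.00134) and 0.33 between nucleus accumbens and hippocampus (adjusted p = 0.00688). These comparisons use more libraries than those under saline, and their share of all genes called is not given.

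The protein disulfide isomerase Pdia4 and the co-chaperone Dnajb9 did not pass between regions under saline with all libraries. Pdia4 had 21.2, 29.6 and 30.6 CPM in nucleus accumbens, 34.6, 35.6, 33.6, 24.3 and 30.6 CPM in the hypothalamic libraries, and 17.6, 26.9 and 31.6 CPM in hippocampus. Dnajb9 had 54.4, 71.0 and 83.3 CPM in nucleus accumbens, 61.3, 45.3, 82.7, 84.8 and 47.3 CPM in the hypothalamic libraries, and 40.7, 58.8 and 73.1 CPM in hippocampus. Here the GC-leaning hypothalamic replicates 1, 2 and 5 were the 3 lowest. Between hypothalamus and hippocampus Dnajb9 was at 0.13 with all libraries (SE 0.16, adjusted p = 0.532). It passed without the GC-leaning libraries (0.42, adjusted p = 0.0399) and with GC lean as a covariate (0.35, adjusted p = 0.00311). Pdia4 was at 0.27 with all libraries (SE 0.13, adjusted p = 0.0886) and at 0.15 without the leaning ones (adjusted p = 0.591). Over the mean of the 3 infusions both genes were higher in hypothalamus than in hippocampus, by 0.24 for Pdia4 (adjusted p = 0.00373) and 0.39 for Dnajb9 (adjusted p = 0.000193). The share of all genes called over that mean is not given.

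With CPM divided by the length of merged exons in kilobases (RPKM), Hspa5 was the most abundant of the 10 in every region under saline, at 58.5 ± 8.68 in nucleus accumbens (SD, n = 6), 100.4 ± 11.1 in hypothalamus (SD, n = 5) and 47.7 ± 7.04 in hippocampus (SD, n = 6). By mean Atf4 was next, at 39.3 ± 3.99 in nucleus accumbens, 48.1 ± 19.0 in hypothalamus and 43.1 ± 3.16 in hippocampus. In hypothalamus it differed from Herpud1 (45.2 ± 12.3) by less than either SD, and by median Herpud1 was the higher, at 42.8 against 37.4. In hippocampus the means of Hspa5 and Atf4 differed by less than the SD of Hspa5. Xbp1, Dnajb9 and Herpud1 followed with means between 22.8 and 45.2, and the means of neighbours among these 3 differed by less than the larger of their SDs in nucleus accumbens and hippocampus. Pdia4 was sixth in every region, at 11.1 to 13.2. Sdf2l1, Ddit3, Manf and Creld2 were the lowest 4 in every region at 5.60 to 11.2, in an order that varied. The merged exons of Manf span 3524 bases, which includes long transcript forms, so its level per length is a low estimate for a short mRNA.

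Insulin changed none of the 10 genes detectably. Across the 9 infusion comparisons, 0 of 90 tests passed by edgeR's quasi-likelihood test, 8 had an unadjusted p under 0.05, DESeq2 called 0, and the lowest adjusted p was 0.149. Of the 90 log2 fold changes, 86 lay within 0.5 of 0, and the largest was 0.68 in size. Standard errors ran from 0.11 to 0.33. For Hspa5 the interval of ± 2 SE around the low-rate change was -0.52 to -0.03 in hypothalamus, -0.14 to 0.42 in nucleus accumbens and -0.07 to 0.53 in hippocampus.

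In hypothalamus edgeR called 0 of 10 genes at the low rate, where 5.38% of all genes were called (3.59% higher and 1.78% lower). At the high rate it also called 0, where 0.184% of all genes were called (0.177% higher and 0.00707% lower), and between the rates 0, where 0% were. The counts of the 10 at an unadjusted p under 0.05 were 2 at the low rate, where 29.9% of all genes had one, 4 at the high rate, where 24.1% did, and 0 between the rates, where 1.41% did. At the low rate Hspa5 had 255, 346 and 443 CPM (lowest, median and highest), and at the high rate 353, 353, 365, 347 and 321 CPM, against the saline values above. Its groups overlapped, and log2 fold changes were -0.27 at the low rate (SE 0.12, adjusted p = 0.1495) and -0.27 at the high rate (SE 0.13, adjusted p = 0.205). Creld2 had 6.91, 10.5 and 12.1 CPM at the low rate and 7.66, 11.3, 7.55, 10.0 and 11.5 CPM at the high rate. Its log2 fold changes against saline were -0.61 at the low rate (SE 0.27, adjusted p = 0.149) and -0.68 at the high rate (SE 0.29, adjusted p = 0.174). Manf had 19.4, 24.3 and 39.5 CPM at the low rate and 29.2, 25.7, 19.9, 21.6 and 30.8 CPM at the high rate, with changes of -0.54 at the low rate (SE 0.27, adjusted p = 0.182) and -0.60 at the high rate (SE 0.28, adjusted p = 0.202). For Dnajb9, with 63.9, 79.3 and 97.8 CPM at the low rate and 98.5, 76.9, 88.2, 77.0 and 79.2 CPM at the high rate, the changes were 0.33 (SE 0.17, adjusted p = 0.187) at the low rate and 0.41 (SE 0.17, adjusted p = 0.176) at the high rate. In all 4 genes the insulin and saline groups overlapped. With the GC-leaning libraries left out, the low-rate changes were -0.15 for Hspa5, 0.20 for Creld2, 0.35 for Manf and -0.05 for Dnajb9, so the last 3 turned their sign. The high-rate changes were then -0.16 for Hspa5, 0.13 for Creld2, 0.30 for Manf and 0.02 for Dnajb9.

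Over the 10 genes the hypothalamic median was -0.24 at the low rate and -0.33 at the high rate, with 7 of 10 below 0 at each, against -0.02 at the low rate and -0.03 at the high rate over all genes. Of all genes 47.9% lay above 0 at the low rate and 47.5% at the high rate. With GC lean as a covariate in the fit, the medians were -0.0023 at the low rate and -0.04 at the high rate. When the GC-leaning libraries were left out they were 0.21 at the low rate, with 7 genes above 0, and 0.13 at the high rate, with 8 above 0. Leaving out saline replicate 4 alone, a library that does not lean, brought Creld2 (-0.76, adjusted p = 0.0448) and Manf (-0.71, adjusted p = 0.0424) past the threshold at the low rate, whereas both lay above 0 without the GC-leaning libraries. No other leave-one-out fit of an infusion comparison called any of the 10.

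**Figure D3:**
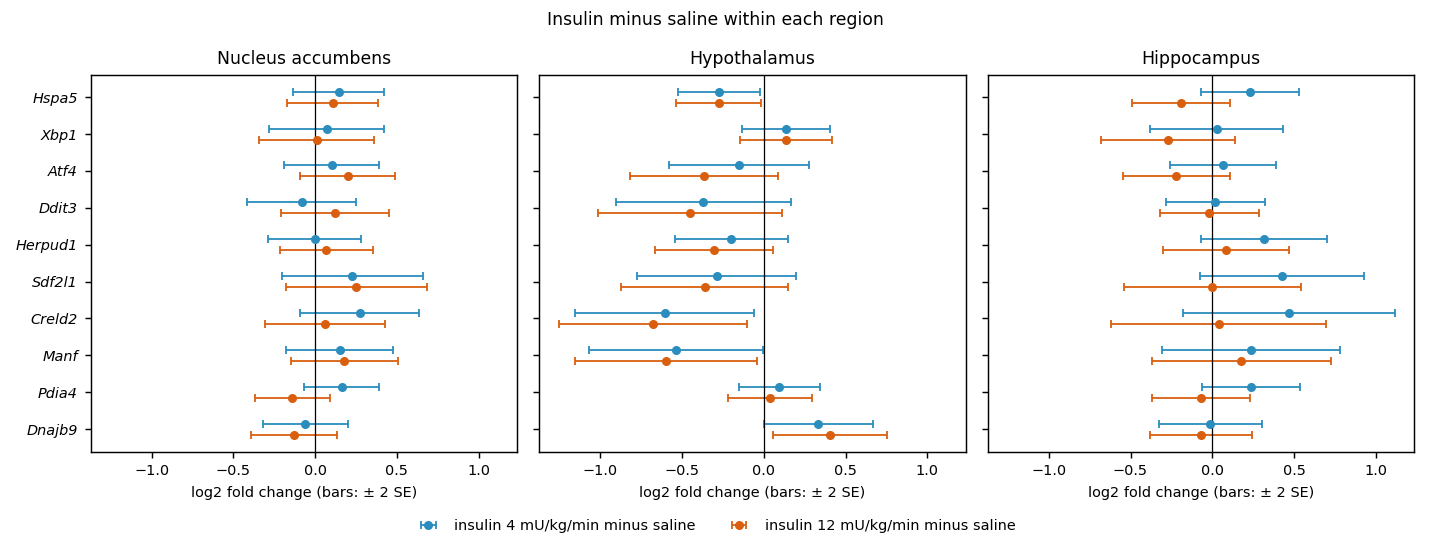
Log2 fold changes of insulin against saline for the 10 genes in each region (points, with bars of ± 2 SE), at the low and the high rate. Creld2 has the widest bars in hypothalamus and hippocampus, and no point passed the adjusted threshold.

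In hippocampus 0 of 10 genes were called in any infusion comparison, and 0% of all genes were. At the low rate 9 of 10 lay above 0 (median 0.23), where 47.6% of all genes did (median -0.01). Between the high and the low rate 10 of 10 lay below 0 (median -0.29), where 50.7% of all genes lay above 0 (median 0.00). Both counts share the low-rate libraries, of which 2 of 6 are GC-leaning. Hspa5 had 145, 171 and 209 CPM at the high rate and 180, 212 and 341 CPM at the low rate (lowest, median and highest). The groups overlapped, and high minus low was -0.42 (SE 0.15, unadjusted p = 0.0108, edgeR adjusted p = 0.9997). Hspa5 was the one gene of the 10 with an unadjusted p under 0.05 in this region, and 2.84% of all genes had one between these rates. The highest low-rate library, replicate 5, is GC-leaning. Choroid plexus markers summed to between 67.1 and 1465 CPM in the saline, 93.0 and 6332 CPM in the low and 61.2 and 2863 CPM in the high group. All 7 choroid plexus genes enter that sum, and their part in these values was not tested.

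In nucleus accumbens 0 of 10 were called, and 0% of all genes were. The medians of the 10 were 0.12 at the low rate and 0.09 at the high rate, against 0.00 over all genes at each. Pdia4 had 22.1, 25.7 and 29.0 CPM at the high rate, against 28.4, 29.9 and 36.6 CPM at the low rate (lowest, median and highest). Its groups overlapped slightly, and high minus low was -0.30 (SE 0.12, unadjusted p = 0.0162, edgeR adjusted p = 0.999). It was the one gene of the 10 with an unadjusted p under 0.05 in nucleus accumbens, and 2.12% of all genes had one between these rates.

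The insulin effect was also tested for differing between regions, in a fit of all 52 libraries. None of the 60 tests passed (edgeR, 0% of all genes called), 13 had an unadjusted p under 0.05, DESeq2 called 0, and the lowest adjusted p was 0.130. That value was for Creld2 at the low rate in hypothalamus minus hippocampus (-1.09, SE 0.39). In hypothalamus minus hippocampus, 5 of the 13 were at the low rate, where 24.3% of all genes had such a p. At the high rate there were 2, where 9.5% of all genes did. In nucleus accumbens minus hypothalamus there were 2 at the low rate, where 14.1% did, and 4 at the high rate, where 18.8% did. In nucleus accumbens minus hippocampus there were 0, where 5.27% did at the low and 2.38% at the high rate. The differences that involve the hypothalamus share the saline hypothalamic libraries described above.

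Other genes of the pathway were taken from lists drawn up with earlier results of these data known. Their counts are to be read against the shares of all genes called between hypothalamus and hippocampus, 24.4% as higher and 21.6% as lower. Between hypothalamus and hippocampus under saline, ER chaperones and folding enzymes had 10 of 18 genes higher and 1 lower, with a median of 0.43. The disulfide isomerase Pdia6 (1.05, SE 0.16, adjusted p = 1.67e-07), the ER Hsp90 Hsp90b1 (0.80, SE 0.13, adjusted p = 1.32e-06) and Hyou1, an exchange factor for Hspa5 (0.81, SE 0.13, adjusted p = 1.53e-06), led the list. Ppib, an ER prolyl isomerase, was the one lower (-0.64, adjusted p = 0.00478). Leaving out the GC-leaning libraries, the count was 9 higher and 1 lower, where 16.3% of all genes were called higher and 15.7% lower. Genes of the translocon, signal peptidase and vesicle traffic had 11 of 20 higher and 2 lower, led by Spcs2 (0.61, adjusted p = 0.000114) and Ssr1 (0.46, adjusted p = 0.00144). Leaving out the GC-leaning libraries, 5 were higher and 1 lower.

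Of 6 sensors and proteases that cut ATF6, 3 were lower in hypothalamus than in hippocampus and 0 higher: Atf6 (-1.90, SE 0.20, adjusted p = 5.10e-11), Atf6b, its paralogue (-1.09, SE 0.17, adjusted p = 3.01e-07), and the site-2 protease Mbtps2 (-1.04, SE 0.22, adjusted p = 7.58e-05). These 3 stayed called without the GC-leaning libraries, at -1.61 for Atf6, -1.18 for Atf6b and -0.65 for Mbtps2, and 1 other gene of the list was then called higher. Shares near or below those of all genes were found for the higher calls of 2 further lists. ER-associated degradation had 3 of 17 higher, with the lectin Os9 leading (0.73, adjusted p = 0.000277), and 1 lower, the ubiquitin-conjugating enzyme Ube2g2 (-0.95, adjusted p = 1.73e-05). Of 24 ATF4 and CHOP targets 4 were higher, led by Chac1, a glutathione-degrading enzyme (0.92, adjusted p = 0.00438), and 2 lower, led by the secreted glycoprotein Stc2 (-1.36, adjusted p = 1.33e-05). Cytosolic heat shock genes had 4 of 9 higher, led by Dnajb1 (0.42, adjusted p = 0.00153), and 1 lower, Hspa1b (-1.99, adjusted p = 1.13e-05), whose reads can be split with the near-identical Hspa1a. All 4 higher heat shock calls were lost without the GC-leaning libraries, where 0 were higher and 2 lower. ER-associated degradation then had 2 higher and 2 lower, and the ATF4 and CHOP targets 2 higher and 2 lower.

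Between nucleus accumbens and hypothalamus 14.7% of all genes were called higher and 17.3% lower, and without the GC-leaning libraries 5.38% higher and 4.82% lower. The chaperone list had 0 of 18 genes higher and 9 lower, led by Pdia6 (-0.73, adjusted p = 0.000299), and 3 lower without the GC-leaning libraries. The translocon list had 2 of 20 higher and 11 lower, and 3 lower without those libraries. Of the sensors 2 of 6 were higher, Atf6 (1.22, adjusted p = 5.54e-06) and Mbtps2 (0.62, adjusted p = 0.0239), and 0 lower. ER-associated degradation had 1 of 17 higher and 5 lower, ATF4 and CHOP targets 1 of 24 higher and 6 lower, and heat shock genes 0 of 9 higher and 4 lower. Most of these calls were lost without the GC-leaning libraries. The sensors then had 1 higher and 1 lower, degradation 0 higher and 1 lower, ATF4 and CHOP targets 1 higher and 0 lower, and heat shock genes 0 called. Between nucleus accumbens and hippocampus, where 14.7% of all genes were called higher and 14.5% lower, 6 of 18 chaperone genes were higher and 1 lower, and Atf6b (-1.02, adjusted p = 5.65e-07) and Atf6 (-0.67, adjusted p = 0.00320) were lower. The other lists had 1 of 20 translocon genes higher and 3 lower, 1 of 17 degradation genes higher and 3 lower, 2 of 24 ATF4 and CHOP targets higher and 6 lower, and 1 of 9 heat shock genes higher and 2 lower. Without the GC-leaning libraries 15.2% of all genes were called higher and 14.8% lower. Chaperones then had 9 higher and 1 lower, sensors 0 higher and 3 lower, and translocon genes 1 higher and 3 lower. Degradation had 1 higher and 5 lower, ATF4 and CHOP targets 1 higher and 5 lower, and heat shock genes 1 higher and 2 lower.

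Over the 9 infusion comparisons 3 genes of the lists were called by edgeR, all in hypothalamus at the low rate. The lipoprotein receptor Vldlr (0.49, SE 0.11, adjusted p = 0.0262) and the Hsp110 family member Hspa4l (0.55, SE 0.14, adjusted p = 0.0328) were higher, and the translocon subunit Ssr2 was lower (-0.70, SE 0.19, adjusted p = 0.0414). None passed without the GC-leaning libraries (adjusted p = 0.811 for Vldlr, 0.733 for Hspa4l and 0.934 for Ssr2).

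Of the listed chaperone genes with a promoter sequence, 5 of 14 held ERSE, namely Hsp90b1, Calr, Canx, Pdia6 and Dnajc3, and 1 held ERSE-II, Dnajb11. Between hypothalamus and hippocampus Hsp90b1, Canx (0.63, adjusted p = 4.23e-05) and Pdia6 were among the genes called higher. Calr (0.34, adjusted p = 0.0908), Dnajc3 (-0.03, adjusted p = 0.862) and Dnajb11 did not pass. Of the whole chaperone list 10 of 18 genes were higher in that comparison, where 24.4% of all genes were. Whether the elements go with the regional difference was not tested. Of 22 ATF4 and CHOP targets with a promoter 9 held the ATF4 element.

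From library to library the 10 genes varied together only in part. After the mean of each group of region and infusion was removed, 31 of 45 pairs of genes had a Pearson r above 0 over 52 libraries, 10 were above 0.5, and the range was -0.69 to 0.77 with a median of 0.26. The highest values joined Creld2 with Manf (0.77), Herpud1 with Creld2 (0.73), Atf4 with Herpud1 (0.66) and Atf4 with Ddit3 (0.63). Dnajb9 ran against most of these, at -0.69 with Herpud1. The same deviations correlated with the GC lean of the library at 0.79 for Herpud1, 0.65 for Creld2, 0.53 for Atf4 and 0.47 for Manf. For Hspa5 the value was 0.34, for Xbp1 -0.43 and for Dnajb9 -0.83. All pairs share the same libraries and their lean, whose part in the pair values was not tested. Transcript GC content of the 10 ran from 41.8% for Dnajb9 to 56.7% for Sdf2l1, and across the 10 genes it correlated with the r to GC lean at 0.65.

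**Figure D4:**
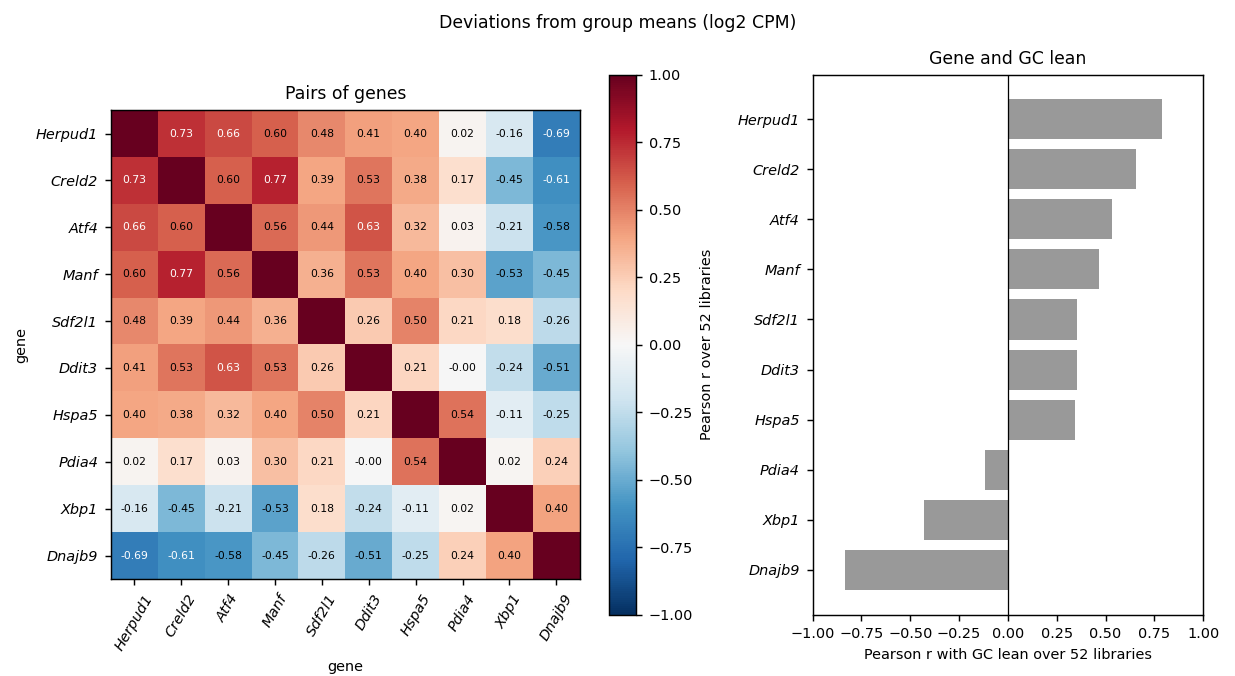
Left, Pearson r over 52 libraries between the deviations of each pair of genes from their group means (log2 CPM), with genes ordered by their r with GC lean. Right, bars from 0 give the r of each gene with the GC lean of the library, from 0.79 for Herpud1 to -0.83 for Dnajb9.

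**Figure D5:**
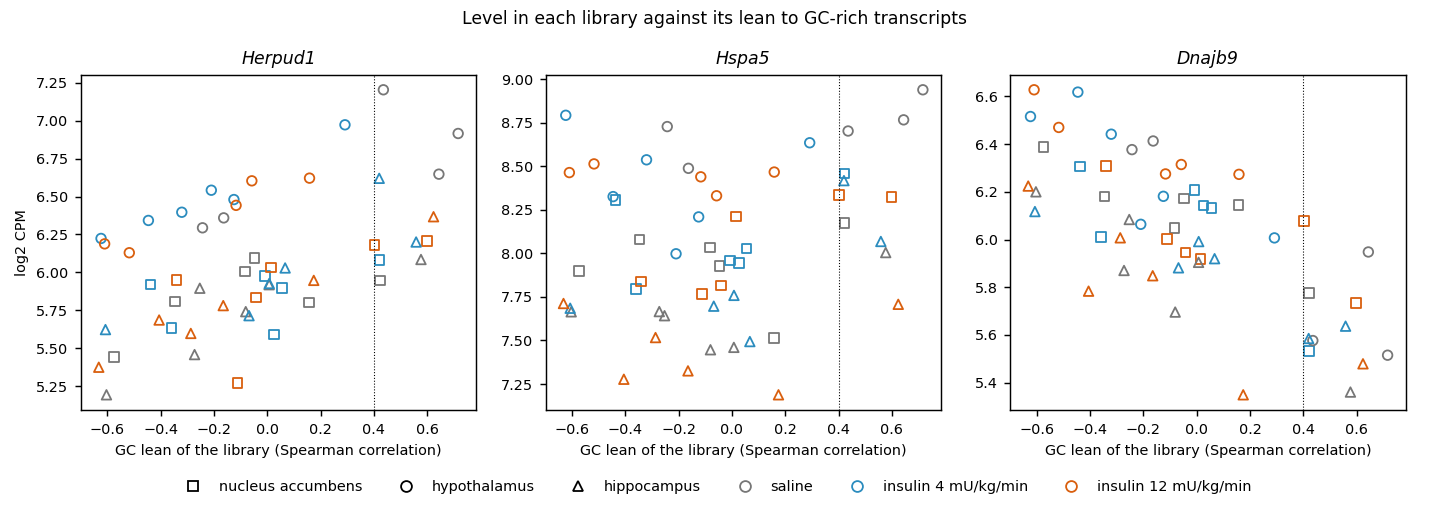
Log2 CPM of Herpud1, Hspa5 and Dnajb9 (chosen after their values were seen) in each of 52 libraries against the lean of the library to GC-rich transcripts; symbols give the region, colours the infusion, and the dotted line the limit of 0.4. Hypothalamic Hspa5 lies above the other regions at most leans, Herpud1 climbs with lean and Dnajb9 declines.

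Among 11355 genes ranked by likeness to Hspa5 over the same deviations, the nearest was Pdia6 (r = 0.78), followed by Zcchc18 (0.75), Pea15a (0.74), Nucb1 (0.72), Tcerg1l (0.72), Cd9 (0.70), Rftn1 (0.70), Vat1 (0.70), Ctsd (0.69) and Celf6 (0.69). The nearest of the other 9 genes of the response was Pdia4, at rank 290 (r = 0.54), then Sdf2l1 at rank 508 (r = 0.50). Herpud1, Manf and Creld2 stood at ranks 1421, 1433 and 1615, Xbp1 at 6916 (r = -0.11) and Dnajb9 at 8331 (r = -0.25).

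Cell type markers moved with the regions as well. In saline libraries the 5 hypothalamic peptide markers summed to between 0.596 and 38.5 CPM in nucleus accumbens, 805 and 1606 CPM in hypothalamus and 0.238 and 2.97 CPM in hippocampus. Oligodendrocyte markers (5 genes) summed to 5906 ± 819 CPM in nucleus accumbens (SD, n = 6), 5813 ± 1382 CPM in hypothalamus (SD, n = 5) and 4311 ± 830 CPM in hippocampus (SD, n = 6). Neuron markers (5 genes) summed to 4849 ± 814 CPM in nucleus accumbens, 3894 ± 337 CPM in hypothalamus and 6203 ± 660 CPM in hippocampus. The order of that sum follows its most abundant genes, Snap25 and Syt1, whereas the medians of Stmn2 (679 CPM in hypothalamus, against 542 CPM in hippocampus) and Eno2 (979 CPM in hypothalamus, against 752 CPM in hippocampus) ran the other way. The part of these cell types in the regional differences was not tested. Hypothalamic peptide sums reached lower values under insulin, at 43.8 to 1273 CPM at the low rate and 118 to 994 CPM at the high rate, and 3 of 6 low and 2 of 5 high libraries lacked at least 1 of the 5 peptides (below 1 CPM), against 0 of 5 saline ones. Without those libraries the medians of the 10 genes against saline were -0.29 at the low rate and -0.35 at the high rate.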

How the data were processed

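Per the labels' protocols, total RNA of each region was made into strand-marked libraries, which were read on a HiSeq machine. The authors deposited 1 table of counts of reads per Ensembl gene, not normalized. The aligner STAR, the read counter featureCounts and mouse build GRCm38.p4 are named in the submitters' processing notes. Neither their versions nor the strand option of counting is given in the sources used here, so reads of overlapping genes on opposite strands may not be separated. Names and gene models came from GENCODE M21 (45229 of 46071 identifiers; the 842 others hold 0.0844% of counts and entered the tests). All 125 pairs of libraries within groups were compared by chi-square over genes (3.46 to 46.7 per gene), and 0 agreed within sampling noise.

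The whole table was fitted with edgeR 4.0.16 under R 4.3.3 (TMM, filterByExpr with a minimum count of 10, robust quasi-likelihood): each region alone for the infusions, and all 52 libraries in 9 groups for the regions and for differences between regions. Adjusted p-values cover all genes tested, and only the genes described are printed. Standard errors are the log2 fold change divided by the root of the F statistic. CPM use TMM over all 52 libraries, RPKM divide them by merged exon length, and likeness uses log2 CPM (prior count 2) less the group mean, among genes of at least 5 CPM, with predicted genes left out. Fits were also run on simulated counts with known changes and no GC lean, so that run does not test how the lean acts on calls. Alternatives used DESeq2 1.42.0, DESeq2 size factors, no filter, tag ranges and tag runs of the title numbers as batches, GC lean, other sets of libraries, and leaving out each library. The 10 genes, the pathway lists and the markers were chosen with earlier results of these data known; all 10 genes are described, and up to 3 called genes per list and direction with the smallest p are named from the lists. Counting error is not given separately, and molecules were not marked with identifiers.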

Additional observations from a re-analysis of the deposited data

Results flagged for a closer look

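In 90 combinations of gene and group, a highest or lowest library was tested for standing far from the rest, which chance does for about 5% of groups, and 6 did. Hspa5 had 256 CPM in saline hippocampal replicate 1, against 174 to 203 CPM in the other 5. Herpud1 had 125 CPM in low-rate hypothalamic replicate 1, against 74.3 to 92.7 CPM in the others. Ddit3 had 5.62 CPM in low-rate hypothalamic replicate 3, below the 9.13 to 10.9 CPM of the others. Atf4 stood high in 3 libraries: 169 CPM in low-rate hippocampal replicate 5 (others 83.6 to 107), 124 CPM in high-rate hippocampal replicate 1 (others 70.8 to 90.6) and 144 CPM in low-rate nucleus accumbens replicate 1 (others 82.0 to 104). The Hspa5 library and the 3 Atf4 libraries lean to GC-rich transcripts, with leans of 0.58, 0.42, 0.62 and 0.42, and the other 2 libraries do not pass the limit of 0.4. The part of this lean was not tested.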

How the results depend on the processing

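In the planned and added alternatives that leave out no single library, 0 of the 10 genes were called in any infusion comparison or difference between regions. Leaving out 1 library gave 0 to 2 in hypothalamus at the low rate and 0 in the other infusion comparisons. Hypothalamus minus hippocampus had 3 to 6 genes called (3 to 5 leaving out 1 library). Hspa5 passed in all 10 alternatives and all 17 leave-one-out fits of both comparisons with the hypothalamus. Nucleus accumbens minus hippocampus had 1 called with GC lean as a covariate (Dnajb9), 1 without GC-leaning libraries (Hspa5), 3 over the mean of the infusions, and 0 to 1 leaving out 1 library (Hspa5, without hippocampal replicate 1 or nucleus accumbens replicate 3). Nucleus accumbens minus hypothalamus had 3 with no filter, 3 with tag run as a batch, 2 with GC lean as a covariate, 1 without GC-leaning libraries, 3 over the mean of the infusions, 2 with only the groups compared, 1 with only tag range 3 (added after seeing the data) and 2 to 5 leaving out 1 library, against 5; it had 2 without hypothalamic replicate 2 or 5 or nucleus accumbens replicate 4, and 3 without nucleus accumbens replicate 3. One called value reversed, Manf at 0.22 without GC-leaning libraries. The shares of all genes called moved between these fits as well. Between nucleus accumbens and hypothalamus they were 14.7% higher and 17.3% lower in the main fit. They were 13.7% and 14.1% with GC lean as a covariate, and 5.38% and 4.82% without GC-leaning libraries. Between nucleus accumbens and hippocampus they were 19% and 18% with the covariate, and 15.2% and 14.8% without those libraries. Shares for the other alternatives are not given here. The cause of the changes in calls was not tested, also where an alternative has fewer libraries. The labels give no replicate numbers, and tag run, which could serve as a block, was fitted only as the batch term above. Creld2, Ddit3 and Sdf2l1, near 10 CPM, rest on the fewest reads.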
